A study of Mus musculus with 168 samples.

Results

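The Sm core genes Snrpb, Snrpn, Snrpd1, Snrpd2, Snrpd3, Snrpe, Snrpf and Snrpg and the U7 LSm genes Lsm10 and Lsm11 were taken by name from a table of 39410 gene rows, and all 10 had a row. Polyadenylated RNA came from neurons that were cut out of mouse brain and spinal cord sections with a laser. The mice were delta7 mice, a model of spinal muscular atrophy (SMA), and their unaffected littermates, aged 2, 5 or 10 postnatal days. The SMA mice were Smn-/-/SMN2+/+/SMN∆7+/+ and the controls Smn+/+/SMN2+/+/SMN∆7+/+, so every mouse carried the human SMN2 transgene and the SMN∆7 transgene, and only the mouse gene differed. Motor neurons came from the oculomotor and trochlear nuclei (ocular), the facial, vagus and hypoglossal nuclei and the lumbar spinal cord, and the red nucleus, a midbrain nucleus without motor neurons, gave the sixth population. The titles of some ocular libraries name only the oculomotor or only the trochlear nucleus. Libraries of the same mouse and population were averaged to 160 samples (88 SMA, 72 control) from 34 mice: 6 control and 9 SMA mice at day 2, 5 of each genotype at day 5, and 4 control and 5 SMA mice at day 10. A group (1 population, genotype and age) had 3 to 7 mice, there were 36 groups, and the mouse was the replicate.

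Sm proteins form a ring of B or N, D1, D2, D3, E, F and G around a uridine-rich site of the spliceosomal small nuclear RNAs, which together make the core of the small nuclear ribonucleoproteins (snRNPs) that remove introns. The SMN complex, which is short of SMN protein in SMA, loads these rings in the cytoplasm. In the U7 snRNP, which processes the 3′ ends of replication-dependent histone mRNAs, LSM10 and LSM11 take the places of D1 and D2. SmN, encoded by Snrpn, is a close relative of SmB that is abundant in brain, and Snrpn is expressed from the paternal chromosome. The question put to the data is how the mRNAs of this cargo are distributed over neuron types and ages, and whether they differ when SMN is low.

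Depth recovered from the table ran from 0.342 to 16.3 M reads per library (median 5.89 M), with the fewest in the red nucleus library of control mouse 252 at day 10. Smn1 was at 4.32 RPKM or more in every control sample and at 4.24 or less in every SMA sample, so the groups did not overlap. The cholinergic marker Chat had control means of 20.2 to 33.9 RPKM in the motor populations and 0.176 in red nucleus. All 7 oligodendrocyte markers rose from day 2 to day 10, averaged over populations, in controls (median log2 difference 2.95) and in SMA mice (2.43). In the averaged genotype contrasts at days 2, 5 and 10 the same list had 0 of 7 members past the threshold, and the astrocyte list had 0, 1 and 1 of 7 higher in SMA (median 0.21 at day 10), in both cases Gfap, an astrocyte filament gene, whose part in the genotype results was not tested. The samples are small pools of cells, so fewer cells of a type and less RNA per cell cannot be told apart. Library numbers in the labels ran in blocks that largely followed genotype and age. What these numbers stand for is not given in the sources used here, and their part in the results was not tested. Reads of an earlier deposit were added to the 5 lumbar control libraries at day 5, per the labels.

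Every member was present in every library, and the levels covered a wide range. RPKM counts reads per kilobase of gene at a common depth, so levels can be compared between genes. Over all 160 samples the mean was 700.5 RPKM for Snrpn, 170.9 for Snrpe, 118.9 for Snrpf, 98.0 for Snrpd2, 95.3 for Snrpd3, 95.2 for Snrpd1, 56.9 for Snrpb, 44.9 for Lsm10, 38.0 for Snrpg and 19.4 for Lsm11. Snrpn ranked 137 among 14085 genes with a mean of at least 1 RPKM, and Lsm11 ranked 4447. The relative spread over samples (coefficient of variation) was smallest for Snrpn, at 0.176, and largest for Lsm10, at 0.507. The median library held about 9041 reads of Snrpn, 661 of Lsm11 and 221 of Lsm10. The fewest reads of any member were 2.33, for Lsm10 in an ocular library of control mouse 252, where the level was 0.504 RPKM. All these reads are estimates from RPKM, recovered depth and annotated exon length. They are not counts, and the lengths used for the RPKM are not known.

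**Figure D1:**
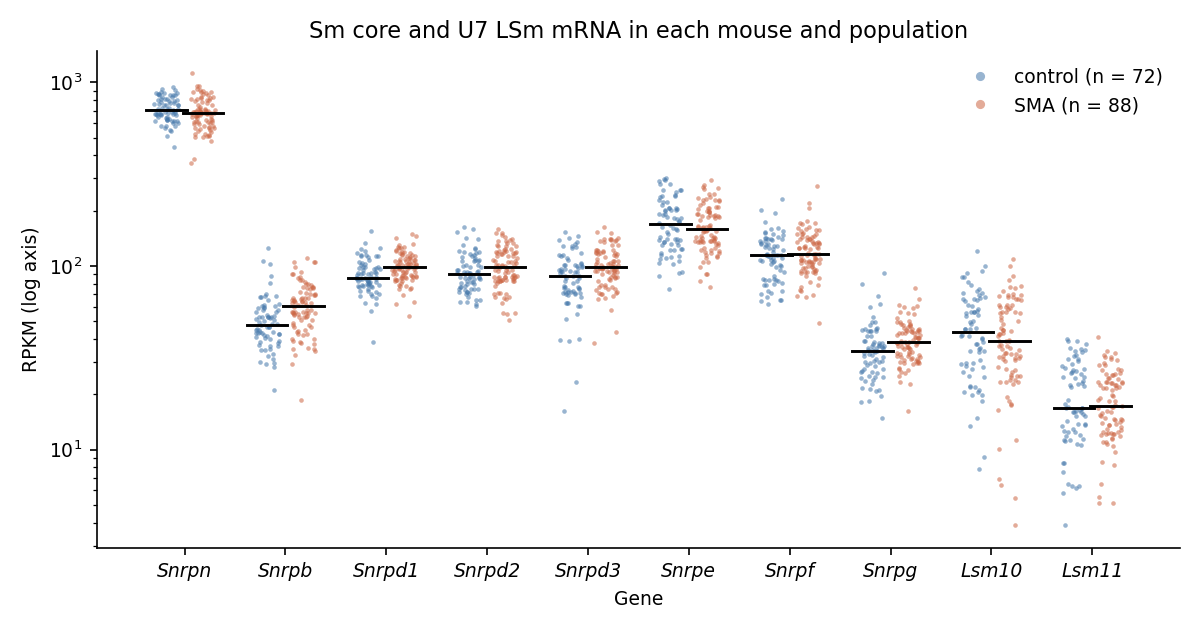
Level of each gene (RPKM, log axis) in 72 control and 88 SMA samples, where a point is 1 mouse and population and a bar is the median. Snrpn stands above all other members at about 700 RPKM, Lsm11 is lowest, and the points of Lsm10 are the most scattered.

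Some rows share sequence with other rows, which limits what a member's level means. Words of 31 bases, sampled along all other annotated transcripts, were looked up in the members' transcripts. Of the words of the processed pseudogene Gm8186, 100% occurred in Snrpg, and its row had a median of 63.0 RPKM, above Snrpg itself. Of those of Gm13092, 82.6% occurred in Snrpf (median 82.3 RPKM), and of those of Gm14277, 57.6% in Snrpd1 (median 31.0). No other gene shared 10 or more such words with Snrpd3 or Lsm10. Copies without a row shared words too, among them Snrpert with Snrpe (72% of its words), Gm10120 with Snrpd2 (66.7%) and Gm35595 with Snrpn (50%). For Lsm11 the largest share was 1.98% of the words of a Haus2 transcript, beside 1.44% for Rtn2 (median 52.6 RPKM). How the authors' counting divided such reads is not given in the sources used here. The levels of all members but Snrpd3 and Lsm10 are therefore uncertain by an unknown share. Snrpn lies on chromosome 7 (59982495 to 60140219, minus strand, GRCm38) and overlaps Snurf, which is read from the same transcripts and was listed at 0 in all 168 libraries. The Snrpn value may therefore stand for the joint transcript.

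The paralogs Snrpb and Snrpn were set side by side first. Snrpb lies on chromosome 2 (130171414 to 130179403, minus strand). In controls Snrpb had 51.1 ± 17.9 RPKM (SD, n = 72) and Snrpn 718.2 ± 108.4, and in SMA samples they had 61.6 ± 19.0 (SD, n = 88) and 685.9 ± 133.4. Snrpn made up 85.2% to 97.2% of the summed RPKM of the pair in single samples, with a mean of 92.4%. Among controls the share was lowest in lumbar neurons, at 91.4% ± 2.82 (SD, n = 13), and highest in hypoglossal neurons, at 94.7% ± 0.940 (SD, n = 12). Snrpn exceeded Snrpb in every sample, at least 5.77-fold.

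Within each population and age, 0 of 180 differences between SMA and control (10 members in 18 contrasts) passed an adjusted p of 0.05 in limma, where 0.129% of all tests of all genes in these contrasts passed. An unadjusted p under 0.05 was reached by 14, or 7.78%, and the lowest adjusted p was 0.356, for Snrpe in lumbar neurons at day 5. The differences, in log2(RPKM + 1), ran from −0.93 for Lsm10 in vagus neurons at day 2 to 0.90 for Lsm10 in hypoglossal neurons at day 5. Their standard errors ran from 0.0909 to 0.605, with a median of 0.247. Differences about as large as that median were therefore not detectable in single populations for most members. In direction, 16 of 18 estimates were above 0 for Snrpb, 14 for Snrpd1 and Snrpg, 13 for Snrpd2 and Snrpd3, 12 for Snrpf and 10 for Snrpe. For Lsm11, Snrpn and Lsm10 the numbers were 8, 7 and 5. The contrasts of a mouse's populations share that mouse, so these counts are a description.

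**Figure D2:**
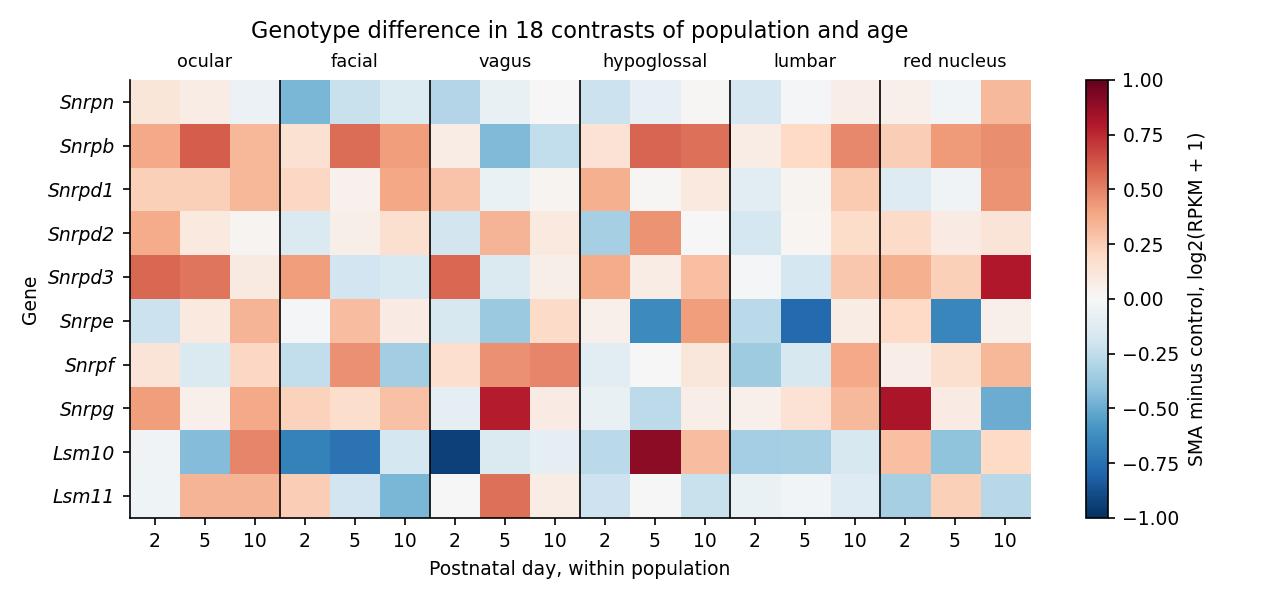
SMA minus control, in log2(RPKM + 1), for the 10 genes (rows) in 6 populations at postnatal days 2, 5 and 10 (columns), red where SMA was higher. The row of Snrpb is above 0 in 16 of 18 cells and that of Lsm10 in 5, and 0 of the 180 cells passed an adjusted p of 0.05.

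Averaging the 6 population differences in 1 fit, with the mouse as a block, gave smaller errors. At day 2, 0 of 10 members passed (1.54% of all genes did), and 4 had an unadjusted p under 0.05. Snrpd3 (chromosome 10, 75517551 to 75537381, plus strand), which pairs with SmB in the ring, had the largest difference, 0.38 (SE 0.129, adjusted p = 0.12). It passed when control mouse 244 was left out (0.52, adjusted p = 0.0356). Snrpn was 0.15 lower (log2 difference −0.15, SE 0.061, adjusted p = 0.227). At day 5, 0 of 10 passed (0.117% of all genes), and 2 had an unadjusted p under 0.05, Snrpb (0.31, adjusted p = 0.453) and Snrpe (−0.35, adjusted p = 0.384). The genotype difference did not pass a test of change with age for any member, either averaged over populations (lowest adjusted p = 0.400, Snrpe, with 0.593% of all genes passing) or within a population (0 of 60, with 0.0344% of all tests passing). Nor did it pass a test of difference between populations at any age (0 of 30, lowest adjusted p = 0.366, Snrpn at day 2, with 0.494%, 0.211% and 0.624% of all genes passing at days 2, 5 and 10).

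At day 10, 1 of 10 members passed, Snrpd1, which was higher in SMA by 0.26 (SE 0.0745, adjusted p = 0.0412). Of all genes 1.78% passed, 1.53% with a higher level in SMA. SmD1 pairs with SmD2 in the ring, and its gene lies on chromosome 18 (10617775 to 10642079, plus strand). Averaged over a mouse's populations, Snrpd1 was at 71.7, 77.6, 78.7 and 79.9 RPKM in the control mice and at 80.6, 91.9, 94.3, 94.4 and 99.6 in the SMA mice. The groups did not overlap, but the lowest SMA mouse lay close to the highest control. SMA mouse 250 (91.9) gave 4 populations and the other mice 6. The call was lost when any of mice 196, 199, 247, 249, 250, 252 or 254 was left out (adjusted p 0.0675 to 0.161), without the shallowest library (0.23, adjusted p = 0.105) and with quantile normalization (0.23, adjusted p = 0.11). In this comparison 9 of 10 members were above 0, beside 62.9% of all genes. At day 2 it was 4 of 10 beside 58.9%, at day 5 7 of 10 beside 59.5%, and over all ages 6 of 10 beside 66.9%. The pseudogene Gm14277 differed by 0.53 in the same contrast (adjusted p = 0.0657), and its part in the Snrpd1 value was not tested.

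**Figure D3:**
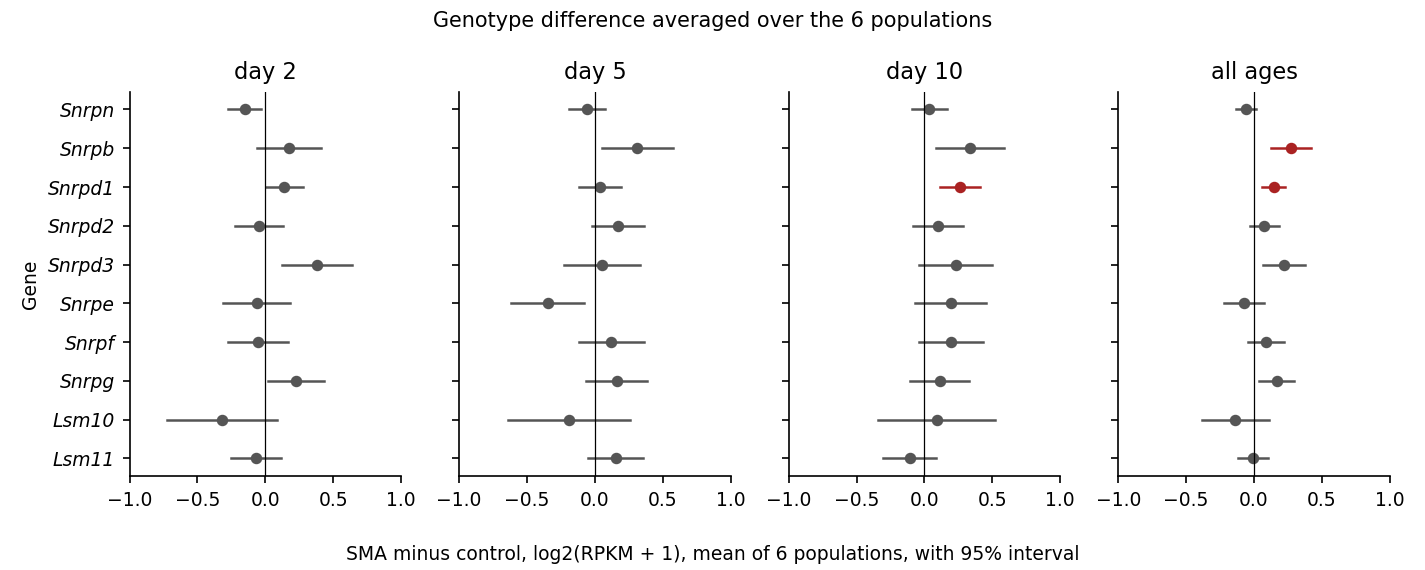
SMA minus control averaged over the 6 populations, in log2(RPKM + 1), for each gene at each age and over all ages, with 95% intervals and in red where the adjusted p was under 0.05. Snrpb, Snrpd1, Snrpd3 and Snrpg lie to the right of 0 in all 4 panels, and the interval of Lsm10 is the widest.

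The fitted difference of Snrpb was above 0 at day 2 (0.17, adjusted p = 0.601) as at days 5 and 10, and a comparison averaged over populations and ages was added after these values were seen, and its p-values carry that choice. Snrpb was then higher in SMA by 0.27 (95% interval 0.13 to 0.42, adjusted p = 0.0153) and Snrpd1 by 0.15 (0.061 to 0.23, adjusted p = 0.0326), while 3.52% of all genes passed, 2.8% with a higher level. The median over the 10 members was 0.081 and over all genes 0.044. At day 10 the means over a mouse's populations for Snrpb were 39.3, 52.2, 53.0 and 56.9 RPKM in controls and 57.1, 61.0, 61.8, 66.0 and 76.6 in SMA mice. At day 5 they were 36.3, 47.2, 55.1, 55.9 and 56.9 in controls and 51.6, 52.9, 60.0, 68.9 and 70.0 in SMA mice. At day 2 the 6 control mice ran from 43.0 to 106.3 with a median of 46.2, and the 9 SMA mice from 52.6 to 64.4 with a median of 56.0, and the means were 58.4 and 57.8. The groups overlapped at days 2 and 5. At day 10 they were apart, but the lowest SMA mouse (57.1) lay close to the highest control (56.9). The fitted difference of Snrpb at day 10 was 0.33 and did not pass (adjusted p = 0.217). The control mouse at 106.3 gave a lumbar sample only, as did SMA mice 41 and 55 at day 2. The other mice at days 2 and 5 gave 3 to 6 populations. These means therefore also differ in the populations they hold, while the fitted differences weigh the 6 populations alike. The Snrpb call was lost without SMA mouse 31 (0.25, adjusted p = 0.0519) or control mouse 247 (0.24, adjusted p = 0.0729). That of Snrpd1 was lost with quantile normalization (0.14, adjusted p = 0.0681) and without any of mice 26, 30, 31, 71, 75, 77, 196, 199, 240 or 247 (adjusted p 0.0566 to 0.0966). Snrpd3 passed without control mouse 244 or 253 (adjusted p 0.0371 and 0.0445), where it otherwise had 0.22 (adjusted p = 0.101). Snrpg had 0.17 (adjusted p = 0.141), and its pseudogene Gm8186 had 0.21 (adjusted p = 0.00942, and 0.0748 without SMA mouse 31).

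**Figure D4:**
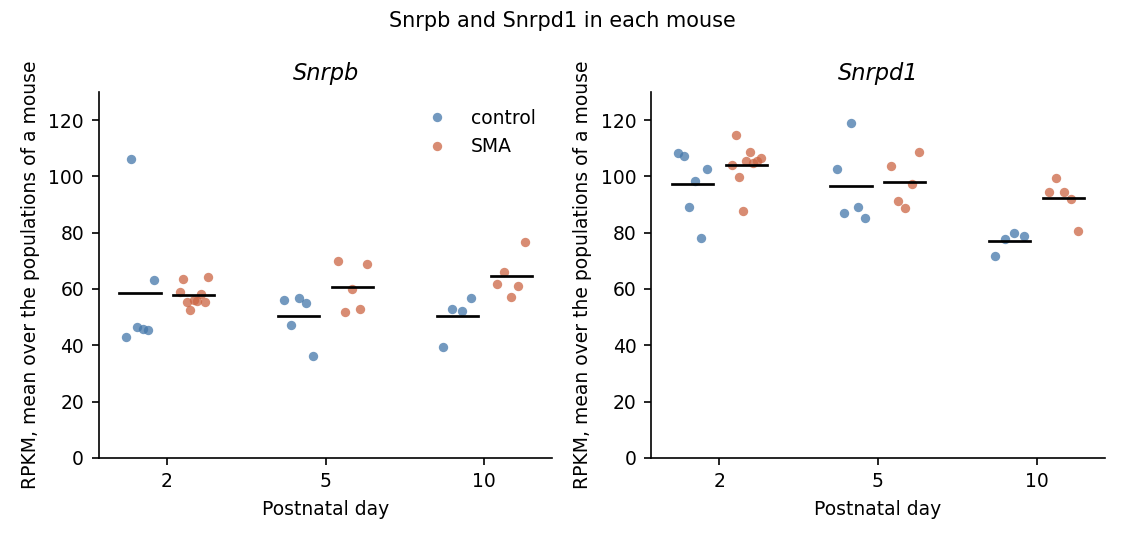
Snrpb and Snrpd1 in RPKM, averaged over the populations of each mouse (point), by postnatal day and genotype, with the group mean as a bar. At day 10 the SMA mice lie above the control mice for both genes, though the lowest SMA mouse is close to the highest control. For Snrpb 1 control mouse at day 2 reaches 106.3 RPKM. A point averages 1 to 6 populations.

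The other Sm genes were not separated by genotype in these averages. SmE, SmF and SmG, which join the ring as a trimer, are encoded by Snrpe (chromosome 1, 133603871 to 133610291, minus strand), Snrpf (chromosome 10, 93583029 to 93589706, minus strand) and Snrpg (chromosome 6, 86371304 to 86379328, plus strand). Over populations and ages Snrpe had −0.07 (SE 0.0754, adjusted p = 0.701), Snrpf 0.087 (adjusted p = 0.58) and Snrpd2 (chromosome 7, 19149722 to 19153542, plus strand) 0.075 (adjusted p = 0.543). Snrpn had −0.06 (SE 0.0372, adjusted p = 0.469). Among the U7 LSm genes, Lsm11 had −0.0087 (SE 0.0559, adjusted p = 0.96) and Lsm10 −0.14 (SE 0.125, adjusted p = 0.649). The standard error of Lsm10 was the largest of the 10, so a difference of the size seen for Snrpb was not detectable for it.

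Genes for proteins that work with these rings were described from lists. In the comparison over populations and ages, 9 of 15 proteins specific to the U1 or U2 snRNP were higher in SMA and 1 was lower, where 2.8% of all genes were higher and 3.52% passed in either direction. Snrpa1, a U2 snRNP protein, was higher by 1.09 (SE 0.0762, adjusted p = 1.92e-24) and Sf3a2, a subunit of the U2-bound SF3A complex, by 0.46 (adjusted p = 0.00578), while Snrnp70, the U1 70K protein, was lower by 0.20 (log2 difference −0.20, adjusted p = 0.0337). Of 9 SMN complex genes Smn1 alone passed, at −4.42. At day 10, where 1.78% of all genes passed, Gemin4 was also higher, by 1.46 (adjusted p = 0.0453). Of 16 genes for snRNP assembly, capping and import, Larp7, which binds the small RNA 7SK, was higher by 0.32 (adjusted p = 0.0235), and Coil, which encodes the Cajal body protein coilin, was higher at day 2 (0.54, adjusted p = 0.0434, with 1.54% of all genes passing). Of 8 tested genes for histone mRNA processing, Cstf2, a cleavage stimulation factor, was lower by 0.48 (log2 difference −0.48, adjusted p = 7.96e-06). Among 7 tested LSm genes of U6 and mRNA decay, Lsm4 was higher by 0.26 (adjusted p = 0.0117), and at day 10 Lsm5 was higher by 0.60 (adjusted p = 0.0421). The calls of Snrpa1, Sf3a2, Lsm4 and Cstf2 over populations and ages were kept in every fit. For the U1 and U2 proteins not named here, the alternative fits were not examined. That of Larp7 was lost with quantile normalization and without any of mice 26, 30, 31, 34, 196 or 247 (adjusted p up to 0.116). That of Snrnp70 was lost without any of mice 16, 18, 26, 29, 30, 31, 75, 209, 240, 244, 250, 253, 254 or 258 (up to 0.0749). Those of Coil and Gemin4 were each lost in 16 fits, among them quantile normalization and unaveraged libraries, with adjusted p up to 0.206 and 0.152, and that of Lsm5 in 9 (up to 0.281). The fits without mice 206, 207 and 211 were among those of Coil, and the fits without mice 196, 247 and 250 among those of Gemin4 and Lsm5. These lists were chosen with results of these data known and are not independent evidence.

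Age moved 3 members in controls. Averaged over populations, Snrpd1 fell by 0.30 from day 2 to day 10 (SE 0.0769, adjusted p = 0.0016), Lsm10 fell by 0.69 (SE 0.225, adjusted p = 0.0161) and Snrpe fell by 0.37 (SE 0.136, adjusted p = 0.0396). Of all genes 21.1% passed in this comparison, 11.6% with a lower level at day 10, so 3 of 10 is not far from the background. Means over a mouse's populations for Snrpd1 were 97.3 ± 11.7 RPKM at day 2 (SD, n = 6), 96.7 ± 14.3 at day 5 (SD, n = 5) and 77.0 ± 3.64 at day 10 (SD, n = 4). Those of Lsm10 were 51.0 ± 18.4, 51.3 ± 7.17 and 35.4 ± 3.78, and those of Snrpe 182.1 ± 33.9, 196.3 ± 21.0 and 144.3 ± 8.89. For each of the 3 genes day 10 was the lowest age in these means. Control mice gave 1 to 6 populations at day 2, 4 or 5 at day 5 and 6 at day 10. The means therefore also differ in the populations they hold, while the fitted falls weigh the 6 populations alike. The control mice at day 10 that set the fall of Snrpd1 are also those it was compared with across genotypes. In SMA mice Snrpd1 fell by 0.18 (SE 0.0675, adjusted p = 0.0417), where 23.6% of all genes passed, 11.9% with a lower level, and the other 9 members did not pass. The fall of Lsm10 was lost without control mouse 26 or 244 (adjusted p 0.0919 and 0.0691) and that of Snrpe without any of control mice 14, 26, 28, 240, 247, 252, 253 or 254 (adjusted p 0.0517 to 0.173). That of Snrpd1 in SMA mice was lost without any of mice 55, 196, 206, 209, 211, 249 or 258 (adjusted p 0.0515 to 0.223). The oligodendrocyte markers rose over the same interval, as given above. In SMA mice 4 of 6 neuron markers were lower and 1 was higher (median −0.27), and in controls 1 was lower and 1 higher (median 0.014). Gm14277, the pseudogene that shares sequence with Snrpd1, fell by 0.59 in controls (adjusted p = 0.00473) and had −0.10 in SMA mice (adjusted p = 0.694). The part of these rows in the values of the members was not tested.

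Snrpn and its neighbours in the imprinted region were followed over age. Between day 2 and day 10 Snrpn did not pass, with −0.06 in controls (SE 0.0668, adjusted p = 0.641) and 0.13 in SMA mice (SE 0.0587, adjusted p = 0.094). Of 5 neighbours on the list Snurf was at 0, and 4 of 4 tested fell in both genotypes, where 11.6% of all genes fell in controls and 11.9% in SMA mice. Named after their values were seen, these were Mkrn3 (log2 difference −1.42 in controls and −1.0 in SMA mice), Magel2 (−0.92 and −0.87), Ube3a (−0.31 and −0.64) and Ndn (−0.26 and −0.22). The fall of Ube3a in controls was lost without mouse 14 (adjusted p = 0.085). Whether Snrpn differed from its neighbours in this change was not tested. At day 10 Mkrn3 was higher in SMA mice than in controls by 0.51 (adjusted p = 0.0357), a call that was lost with quantile normalization and without any of mice 196, 199, 247, 250, 252 or 258. At day 5 Snrpn was higher than at the other ages in mouse means, with 784.8 ± 29.9 RPKM in controls (SD, n = 5) against 683.2 ± 73.8 at day 2 (n = 6) and 665.4 ± 43.0 at day 10 (n = 4), and 780.4 ± 45.3 in SMA mice (n = 5) against 632.3 ± 58.0 (n = 9) and 682.9 ± 58.3 (n = 5). Snrpd2 went the other way in controls, with 76.6 ± 4.55 at day 5 against 108.4 ± 21.1 and 97.7 ± 6.70. Mice differed in the populations they gave, so these means also differ in the populations they hold. Contrasts with day 5 were not tested.

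The U7 pair had the lowest p-values of the 10 members in the comparison of populations. In controls, 4 of 10 members passed a test for any difference between populations, Lsm11 (adjusted p = 7.02e-27), Lsm10 (0.000742), Snrpb (0.0064) and Snrpf (0.0303). Of all genes 43.7% passed, so the count is near the background. Lsm11 lies on chromosome 11 (45928269 to 45944935, minus strand) and Lsm10 on chromosome 4 (126096623 to 126098584, plus strand). The 250 bases before the RefSeq start of each gene are shown because in controls these partners in the same ring had vagus and lumbar neurons at opposite ends of their orders, while the other 4 populations came in the same order. They are from RefSeq (GRCm38.p6), where Lsm10 starts inside the GENCODE gene, so the end of its stretch lies within the GENCODE coordinates. They are written 5′ to 3′ on the gene's strand, with capitals marking GC boxes (GGGCGG) and CCAAT boxes (CCAAT) found on either strand.
Lsm11, chr11:45944936-45945185, minus strand: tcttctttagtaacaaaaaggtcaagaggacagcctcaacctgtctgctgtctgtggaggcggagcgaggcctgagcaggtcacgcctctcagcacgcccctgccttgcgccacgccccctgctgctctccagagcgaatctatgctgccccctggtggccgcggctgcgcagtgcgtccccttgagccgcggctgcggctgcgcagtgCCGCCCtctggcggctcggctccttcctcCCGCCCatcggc
Lsm10, chr4:126096403-126096652, plus strand: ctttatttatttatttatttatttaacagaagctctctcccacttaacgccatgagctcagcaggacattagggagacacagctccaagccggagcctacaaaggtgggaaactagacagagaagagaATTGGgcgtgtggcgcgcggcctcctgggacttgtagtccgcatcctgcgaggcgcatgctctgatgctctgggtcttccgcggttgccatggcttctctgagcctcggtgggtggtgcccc
The Lsm11 stretch held 67.2% G and C, 20 CpG and 2 GC boxes, and that of Lsm10 held 54.4%, 12 CpG and 1 CCAAT box. Of 32817 mouse promoter stretches of this length 32.7% held a GC box and 33.8% a CCAAT box. Neither held a TATA box (TATAAA), which 12.4% of them did. These matches are a description of letters only.

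Lsm11 had its lowest control mean in vagus neurons, at 8.57 ± 3.50 RPKM (SD, n = 11), then 12.8 ± 2.60 in ocular (n = 12), 16.7 ± 5.87 in hypoglossal (n = 12), 22.0 ± 7.82 in facial (n = 13), 29.1 ± 5.35 in red nucleus (n = 11) and 29.9 ± 7.10 in lumbar neurons (n = 13). The lumbar mean was 3.49 times the vagus mean. Lumbar samples ran from 17.8 to 39.8 RPKM and vagus samples from 3.87 to 16.1, without overlap, while lumbar and red nucleus means differed by less than either SD. Against the mean of the other 5 populations Lsm11 was lower in vagus (−1.19, SE 0.105, adjusted p = 1.81e-19) and ocular neurons (−0.55, adjusted p = 4.8e-06). It was higher in lumbar (0.82, adjusted p = 4.58e-12), red nucleus (0.78, adjusted p = 3.82e-10) and facial neurons (0.31, adjusted p = 0.0224). Of all genes 26.6%, 17.6%, 17.9%, 21.4% and 9.4% passed in these 5 contrasts, and 11.1% in that of hypoglossal neurons, where 0 members did. The facial call was lost without control mouse 71, 244 or 253 (adjusted p 0.0733 to 0.105). In SMA mice, a comparison added after the values were seen, the order was vagus (10.6 ± 4.82, SD, n = 14), hypoglossal, ocular, facial, red nucleus and lumbar (27.5 ± 6.04, SD, n = 17), and the difference between populations passed (adjusted p = 2.5e-23, with 45% of all genes passing). Ocular and hypoglossal neurons thus changed places, at 15.0 ± 3.47 (n = 16) and 14.6 ± 3.70 (n = 15).

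Marker levels were set beside this order. The summed cholinergic markers had a median of 35.3 RPKM in red nucleus and 1426 in lumbar control samples, the 2 populations with the highest Lsm11. The oligodendrocyte sum had control medians of 54.8 in vagus, 75.1 in lumbar, 95.2 in red nucleus, 96.0 in facial, 107.5 in hypoglossal and 257.8 in ocular samples. Microglial markers were highest in vagus samples, with a median of 30.4 against 8.95 to 14.0 in the others, and the astrocyte sum was lowest there (574.3 against 1182 to 1670), of which most was Aldoc. In the test of vagus against the other 5 in controls, 3 of 7 astrocyte markers were higher and 1 was lower (median 0.32), so the list and its sum differed in direction. The part of other cells in the vagus value was not tested.

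Lsm10 had its lowest control mean in lumbar neurons, at 29.1 ± 9.76 RPKM (SD, n = 13), followed by 36.6 ± 18.6 in ocular (n = 12), 39.9 ± 18.3 in hypoglossal (n = 12), 54.1 ± 23.4 in facial (n = 13), 61.6 ± 29.9 in red nucleus (n = 11) and 65.5 ± 18.4 in vagus neurons (n = 11). Lumbar samples ran from 19.7 to 48.1 and vagus samples from 37.7 to 99.6, with overlap, and each neighbouring pair lay within 1 SD. Lsm10 was higher in vagus neurons than in the mean of the other 5 (0.71, SE 0.234, adjusted p = 0.0139) and lower in lumbar neurons (−0.69, SE 0.218, adjusted p = 0.0149). The lumbar call was lost without control mouse 28 (−0.60, adjusted p = 0.0594). In SMA mice it was lower in lumbar (−0.85, adjusted p = 0.000279, 22% of all genes) and higher in red nucleus neurons (0.72, adjusted p = 0.0099, 20.5% of all genes), where its mean was highest (60.8 RPKM). In vagus neurons of SMA mice it did not pass (0.42, adjusted p = 0.136). Lumbar and vagus neurons were thus at opposite ends for the 2 partners in controls, and in both genotypes lumbar neurons had the highest Lsm11 mean and the lowest Lsm10 mean. Over the 36 group means the correlation of Lsm10 and Lsm11 was −0.26, which describes groups that share mice.

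Among the Sm genes 2 passed in controls. Snrpb in controls ran from 40.3 ± 8.56 RPKM in red nucleus (SD, n = 11) to 63.9 ± 22.2 in lumbar neurons (SD, n = 13), and lumbar neurons were above the mean of the other 5 (0.38, SE 0.128, adjusted p = 0.0214). That call was lost without control mouse 20, 29, 34, 247 or 252 (adjusted p 0.0503 to 0.113) and with the mouse as a fixed block in controls alone (0.30, adjusted p = 0.104). Snrpf ran from 91.7 ± 28.1 in vagus (SD, n = 11) to 134.2 ± 46.1 in facial neurons (SD, n = 13), and vagus neurons were lower than the rest (−0.36, SE 0.127, adjusted p = 0.0213). Gm13092, which shares sequence with Snrpf, also differed between populations in controls (adjusted p = 0.00581) and in SMA mice (0.0037), and its part in the Snrpf value was not tested. The Snrpf call was lost without control mouse 26, 71 or 247 (adjusted p 0.0717 to 0.161). For the other 6 Sm genes the highest control mean was 1.17 times (Snrpn) to 1.42 times (Snrpg) the lowest. In SMA mice 6 of 10 members passed, where 45% of all genes did, so this count is also near the background. Beside Lsm11, Lsm10 and Snrpb these were Snrpn (adjusted p = 0.000406), Snrpd1 (0.00398) and Snrpg (0.00491), while Snrpf did not pass. The pseudogene Gm8186, which shares sequence with Snrpg, passed the same test in controls (adjusted p = 0.000294) and in SMA mice (0.0164). Gm14277, which shares sequence with Snrpd1, did not pass it in SMA mice (0.448). The part of these rows in the Snrpg and Snrpd1 values was not tested. In SMA mice Snrpn was highest in ocular neurons, at 767.9 ± 135.2 (SD, n = 16), and lowest in facial neurons, at 609.2 ± 115.9 (SD, n = 14). Snrpd1 was highest in facial neurons, at 117.6 ± 15.5 (SD, n = 14). Snrpb was lowest in vagus neurons of SMA mice, at 48.0 ± 15.5 (SD, n = 14), and that population's call (−0.47, adjusted p = 0.00141, 29.2% of all genes) was lost without SMA mouse 77 (−0.27, adjusted p = 0.14). The genotypes were not shown to differ in these orders, since no member passed the test of a genotype difference between populations.

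Lsm11 was also the member whose change with age depended on the population. Within populations 4 of 60 changes from day 2 to day 10 passed in controls and 1 of 60 in SMA mice, where 7.06% and 7.39% of all tests did. In lumbar control neurons it rose by 0.65 from day 2 to day 10 (SE 0.163, adjusted p = 0.0065), where 4.76% of all genes rose. The values were 17.8, 23.2, 26.2 and 26.5 RPKM at day 2 and 34.2, 35.4, 38.8 and 39.8 at day 10, without overlap. In SMA lumbar neurons it rose by 0.59 (SE 0.135, adjusted p = 0.00218), from 17.5 to 25.8 at day 2 (n = 7) to 28.9 to 41.0 at day 10 (n = 5), again without overlap, where 8.55% of all genes rose. In facial control neurons it rose by 0.90 (SE 0.239, adjusted p = 0.0228, 2.6% of all genes rose), from 10.6, 14.4, 16.0, 16.7 and 18.5 to 24.9, 24.9, 31.3 and 35.7. In SMA facial neurons it had 0.20 (SE 0.223, adjusted p = 0.684). The facial call in controls was lost without mouse 26, 253 or 254 (adjusted p 0.0656 to 0.0937) and when the other groups were left out of the fit (adjusted p = 0.0527). In vagus neurons the estimates were negative, −0.94 in controls (SE 0.344, adjusted p = 0.22) and −0.87 in SMA mice (SE 0.272, adjusted p = 0.0801). Control vagus values were 10.8, 11.4 and 16.1 at day 2 and 3.87, 6.21, 6.46 and 8.48 at day 10.

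A test of whether the change from day 2 to day 10 differed between populations was added after these values were seen. Lsm11 passed in controls (adjusted p = 0.000165, 5.54% of all genes) and in SMA mice (adjusted p = 0.000997, 4.74% of all genes), and it was the only member to do so in either. Vagus and lumbar neurons, the ends of the order at day 10, were already ordered that way at day 2, at 12.8 ± 2.91 (n = 3) and 23.4 ± 4.05 RPKM (n = 4) in controls, and lay at 6.26 ± 1.89 (n = 4) and 37.1 ± 2.69 (n = 4) by day 10. The oligodendrocyte sum in lumbar samples reached 1177 RPKM in a control and 996.1 in an SMA sample, against no more than 110.3 in vagus samples, and its part in the lumbar rise was not tested.

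**Figure D5:**
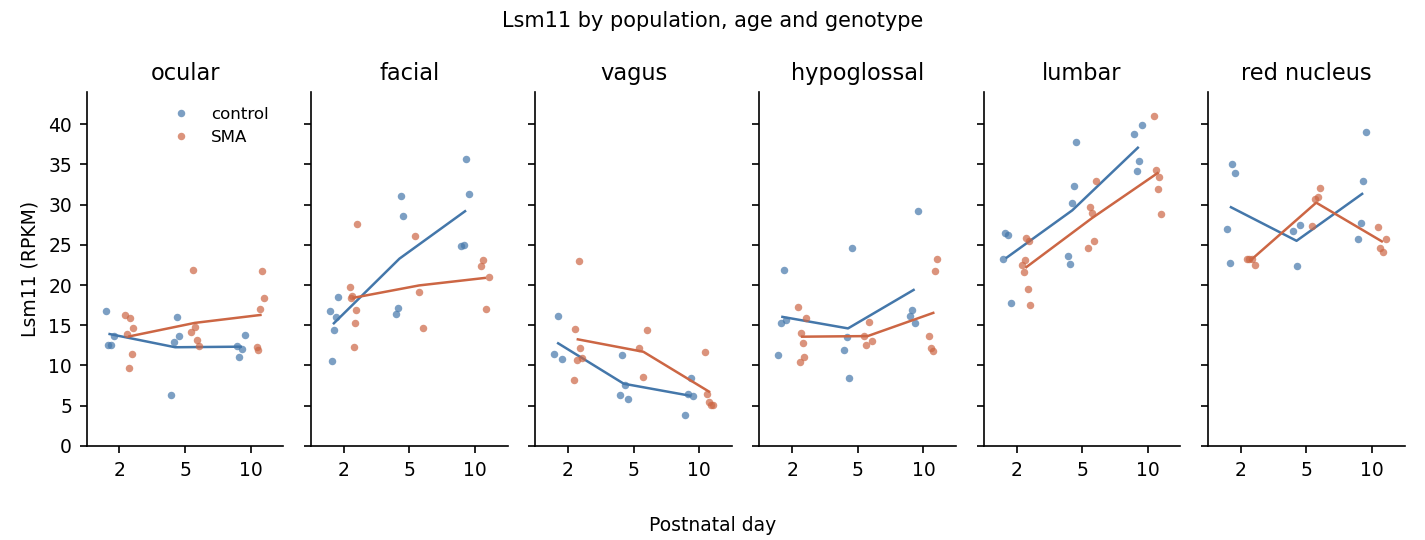
Lsm11 (RPKM) by postnatal day in the 6 populations, where points are mice and lines join group means, with controls in blue and SMA mice in orange. The lumbar points climb to between 28.9 and 41.0 at day 10 in both genotypes together, and the vagus points end between 3.87 and 11.6.

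Apart from Lsm11, 2 members passed for age within a population. Snrpd1 fell by 0.42 in lumbar control neurons (SE 0.133, adjusted p = 0.0354, 7.25% of all genes fell), from 79.5, 107.4, 112.1 and 113.4 RPKM to 68.5, 72.7, 77.9 and 86.2, with overlap. Lsm10 fell by 1.25 in hypoglossal control neurons (SE 0.371, adjusted p = 0.0462, 2.68% of all genes fell), from 55.8, 56.6, 61.6 and 67.8 to 9.08, 27.6, 35.6 and 40.5, without overlap. Both sat close to the threshold. The Snrpd1 call was lost without mouse 20, 28, 244, 247, 252 or 254 (adjusted p 0.0613 to 0.12), with quantile normalization (0.0711) and when the other groups were left out of the fit (0.0917). That of Lsm10 was lost with no filter on low values (adjusted p = 0.085), with quantile normalization (0.0504), when the other groups were left out of the fit (0.129) and in 18 of 34 fits that each left out a mouse, with its largest move without control mouse 254 (−0.80, adjusted p = 0.229).

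The Sm genes showed little common pattern in their group means. Each mean rests on 3 to 7 mice, so noise can lower the correlations, and pairs of other genes were not compared. Over the 36 group means the 28 pairs of Sm genes had correlations of −0.56 to 0.62 with a median of 0.079, and 19 were above 0. The highest was between Snrpd2 and Snrpg and the lowest between Snrpn and Snrpg. The genes most like Lsm11 over the group means, out of 9257 compared, were Abhd17a (Pearson r = 0.849), Sppl2b (0.841) and Clstn1 (0.838). Those most like Snrpn were Eif4a2 (0.80), Gm5499 (0.796) and Gm13394 (0.79), and those most like Snrpb were Rps27l (0.782), Eif3b (0.767) and Myo1c (0.765). Groups of different populations share mice, so these values describe likeness of pattern only.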

How the data were processed

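RNA-seq was run on laser-captured neurons by Smart-seq2, per the labels' protocols. The authors deposited 1 table of RPKM for 168 libraries, and each column matched the labels of its library. Reads were mapped with STAR 2.4.1c to mm10 and hg19, per the submitters' processing notes. The read counter, annotation and use of strand are not given in the sources used here. Per the labels' genotypes, controls and SMA mice were littermates.

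RPKM of a mouse's libraries from the same population were averaged (8 samples). Genes with RPKM of at least 1 in as many samples as the smallest group entered the fit. The test was that of limma 3.58.1 (R 4.3.3, lmFit and eBayes with trend) on log2 of RPKM plus a pseudocount of 1, in a fit per population with 6 groups, and in a joint fit of 36 groups with the mouse as a random block (duplicateCorrelation, correlation 0.0366). Fold changes on this scale understate those of low genes. P-values are two-sided and adjusted by Benjamini and Hochberg over all genes within each comparison, with a threshold of 0.05. Depth was recovered from the steps of low values of 17397 single-transcript genes. In the median library 78.8% of these low values lay within 1% of a whole step. Depth gives the reads per member as estimates, which also rest on GENCODE M21 exon lengths. The lengths behind the RPKM may differ. Libraries carry no molecular identifiers, so reads are not molecules and their error can exceed counting error. Gene positions are from GENCODE M21 (GRCm38). The tests were tried on simulated data with independent noise and no mouse effect, so that trial does not bear on the mouse block.

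The members, the gene lists and the rules were chosen with earlier results of these data known. Named pathway genes are those past the threshold in an averaged genotype comparison, at most 2 per direction and list. Alternatives were a pseudocount of 0.1, no filter, quantile normalization, libraries unaveraged, each mouse left out, only the groups compared in the fit, no replicate block, a fixed block and, added later, leaving out the shallowest library. Symbols not matched in the table were Lsm8, Slc18a3 and, through a misspelling, Sympk. Mouse numbers mark the same animal in several populations, per the labels. Deviations from the group means had a median correlation of 0.0328 over 339 pairs of the same mouse and −0.0064 over 1480 pairs of other mice.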

Additional observations from a re-analysis of the deposited data

Results flagged for a closer look

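Each of the 10 members was looked at in each group of 4 to 7 samples, which gave 320 sets that share samples. In 17 of these sets (5.31%) the highest or lowest sample stood apart from the others by Dixon's test at 95%. Chance alone does this in about 1 of 20 sets. In 11 it was high and in 6 low. Snrpb was at 125.0 in facial neurons of control mouse 244 at day 2 (above 36.8 to 62.1 in the rest of the group). Another was 110.6 in hypoglossal neurons of SMA mouse 207 at day 2 (above 39.9 to 64.9 in the rest of the group). Snrpn was at 654.8 in ocular neurons of SMA mouse 76 at day 5 (below 879.7 to 953.4 in the rest of the group). Snrpd1 was at 66.6 in ocular neurons of control mouse 28 at day 2 (below 86.3 to 90.3 in the rest of the group). Its other outlying value was 99.3 in red nucleus neurons of SMA mouse 199 at day 10 (above 74.5 to 78.4 in the rest of the group). Snrpd2 was at 139.8 in hypoglossal neurons of control mouse 244 at day 2 (above 116.5 to 119.6 in the rest of the group). A second value was 74.4 in vagus neurons of control mouse 252 at day 10 (below 105.8 to 109.9 in the rest of the group). Snrpd3 was at 142.4 in lumbar neurons of control mouse 75 at day 5 (above 85.6 to 101.2 in the rest of the group). Snrpe was at 290.8 in facial neurons of control mouse 14 at day 2 (above 131.1 to 166.5 in the rest of the group). Snrpf was at 80.6 in lumbar neurons of control mouse 253 at day 10 (below 105.4 to 108.3 in the rest of the group). Another was 193.9 in red nucleus neurons of control mouse 247 at day 10 (above 79.6 to 92.9 in the rest of the group). Snrpg was at 22.7 in hypoglossal neurons of control mouse 34 at day 5 (below 35.8 to 36.8 in the rest of the group). Lsm10 was at 58.0 in ocular neurons of SMA mouse 46 at day 5 (above 31.5 to 38.9 in the rest of the group). Lsm11 was at 29.1 in hypoglossal neurons of control mouse 254 at day 10 (above 15.3 to 16.9 in the rest of the group). Its other outlying value was 21.9 in ocular neurons of SMA mouse 46 at day 5 (above 12.4 to 14.8 in the rest of the group). A second value was 22.5 in red nucleus neurons of SMA mouse 211 at day 2 (below 23.2 to 23.3 in the rest of the group). Another was 11.6 in vagus neurons of SMA mouse 196 at day 10 (above 5.09 to 6.46 in the rest of the group). 

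The change of Lsm11 from day 2 to day 10 differed between the 6 populations in controls (adjusted p = 0.000165) and in SMA mice (adjusted p = 0.000997) in limma's F test. In controls the estimates ran from −0.94 in vagus to 0.90 in facial neurons, and in SMA mice from −0.87 in vagus to 0.59 in lumbar neurons. This test was added after the values were seen.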

How the results depend on the processing

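Of 35 member results past the threshold, 28 stayed past it in every setting that kept all mice, 16 in every fit including the 34 that each left out a mouse, and 0 changed sign. The counts of members passing moved as follows; the cause was not tested. With quantile normalization the averaged genotype comparison had 0 members at day 10 (1 as reported) and 1 over populations and ages (2 as reported), and the within-population comparison of ages in controls had 0 lower (2 as reported). Without the shallowest library the day 10 count was 0. With no filter on low values 1 member was lower with age in controls. When the other groups were left out of the fit 1 was higher and 0 were lower with age in controls, and 2 passed in SMA mice (1 as reported), since Snrpg joined Lsm11.

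Leaving out each mouse in turn gave 0 in all fits for SMA against control within population and age (0 higher, 0 lower), 0 to 1 for the averaged comparison at day 2, 0 at day 5 and 0 to 1 at day 10, and 0 to 3 over populations and ages (0 without mouse 31 or 247, 3 without mouse 244 or 253). For age within population it gave 1 to 2 higher and 0 to 2 lower in controls, and 1 to 2 in SMA mice. Averaged over populations in controls it gave 1 to 3, with 1 without mouse 26. The test between populations in controls gave 2 (without mouse 244) to 6 (without mouse 28) and 8 to 11 calls of a population against the other 5. The change of genotype with age and between populations stayed at 0, the change with age between populations at 1 in each genotype, and the test in SMA mice at 6. Of 33 passing results of the other named genes, 19 kept their call in every fit.

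Without the replicate block the averaged comparisons had the same counts as with it, 1 at day 10, 2 over populations and ages, 3 for age in controls and 4 between populations. With the mouse as a fixed replicate block, in controls alone, 4 passed between populations and 10 calls were made against the other 5 (9 as reported). There Snrpb in lumbar neurons had 0.30 (adjusted p = 0.104) and was no longer past the threshold. Single populations hold 3 to 7 mice a group. Lsm10 had the fewest estimated reads of the members in the median library (about 221), and the part of depth in its spread was not tested. RPKM carries no counts, so no count test was run.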
